A study of Rattus norvegicus with 6 samples.

Results

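The genes described here encode the enzymes and regulators of cholesterol and fatty acid synthesis. They are a list of 36 genes set by name, with no threshold on their values. Through the RefSeq accession of the probes, 35 of the 36 were matched to the array and all 35 passed the filter on dim probes, out of 12269 named genes tested. Srebf1, which encodes a transcription factor of fatty acid synthesis, had no matched probe and was not analysed here. Expression was measured in the renal cortex of male Sprague-Dawley rats, bought at an age of 5 weeks and kept on a basal diet. The vehicle group was 3 rats given corn oil for 4 weeks, and the treated group was 3 rats given 1000 mg/kg/day of phenolphthalein, a former laxative, over the same 4 weeks. Each rat gave 1 single-colour Agilent array. The animals of a group are numbered by their scanner files, a numbering that remains unsettled. Both groups are whole pieces of cortex, so fewer cells of a type and less RNA per cell cannot be told apart.

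Cells make cholesterol from acetyl-CoA through the mevalonate pathway to squalene, and then through a series of ring reactions to cholesterol. The transcription factor encoded by Srebf2 turns these enzymes on when sterols in the endoplasmic reticulum are low, after its escort protein Scap has carried it to the Golgi, while the Insig proteins hold it back when sterols are plentiful. Fatty acids are built from acetyl-CoA by the carboxylases and fatty acid synthase and are then lengthened and desaturated. The proximal tubule, which fills most of the renal cortex, burns fatty acids as its main fuel and also makes and takes up sterols.

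The tissue carried the markers of renal cortex. All 10 proximal tubule markers and all 5 glomerular markers were well above background, and the summed level of the proximal tubule markers was 2176 to 2253 times the array's 75th percentile in vehicle and 2076 to 2148 times in phenolphthalein. The 6 arrays lay on 3 slides. Slide 1 held the vehicle arrays and no others, so its effect and that of the group cannot be told apart. Slide 2 held phenolphthalein replicate 1 alone, and slide 3 held phenolphthalein replicates 2 and 3. Of the probes on each array, 64.8% to 72.1% were well above background and 0 were saturated. The 3 arrays per group limit the precision of every value.

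Levels are given as the log2 of the processed intensity relative to each array's 75th percentile, so a level of 0 is that percentile and a difference of 1 is a factor of 2. Differences are phenolphthalein minus vehicle on this scale, with the standard error (SE) of limma and p-values adjusted by Benjamini-Hochberg over all 34417 tested items (genes and unnamed probes). Probes differ in how brightly they light up, so levels are compared between arrays and not between genes.

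As a whole, the sterol and fatty acid synthesis genes differed little between the groups, as did most items on the array. None of the 35 passed the threshold of 0.05 (limma, smallest adjusted p = 0.521), and 0% of all items did. The median difference over the 35 genes was 0.03, against -0.02 over all items. In 28 of the 35, or 80%, the difference was under 0.25 in size, close to the 77.7% of all items, and in 25 of the 35 the 95% interval lay between -0.5 and 0.5. Higher values were seen in 22 genes and lower values in 13, against 15751 and 18666 of all items, and without phenolphthalein replicate 1 the count of higher values was 17.

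**Figure D1:**
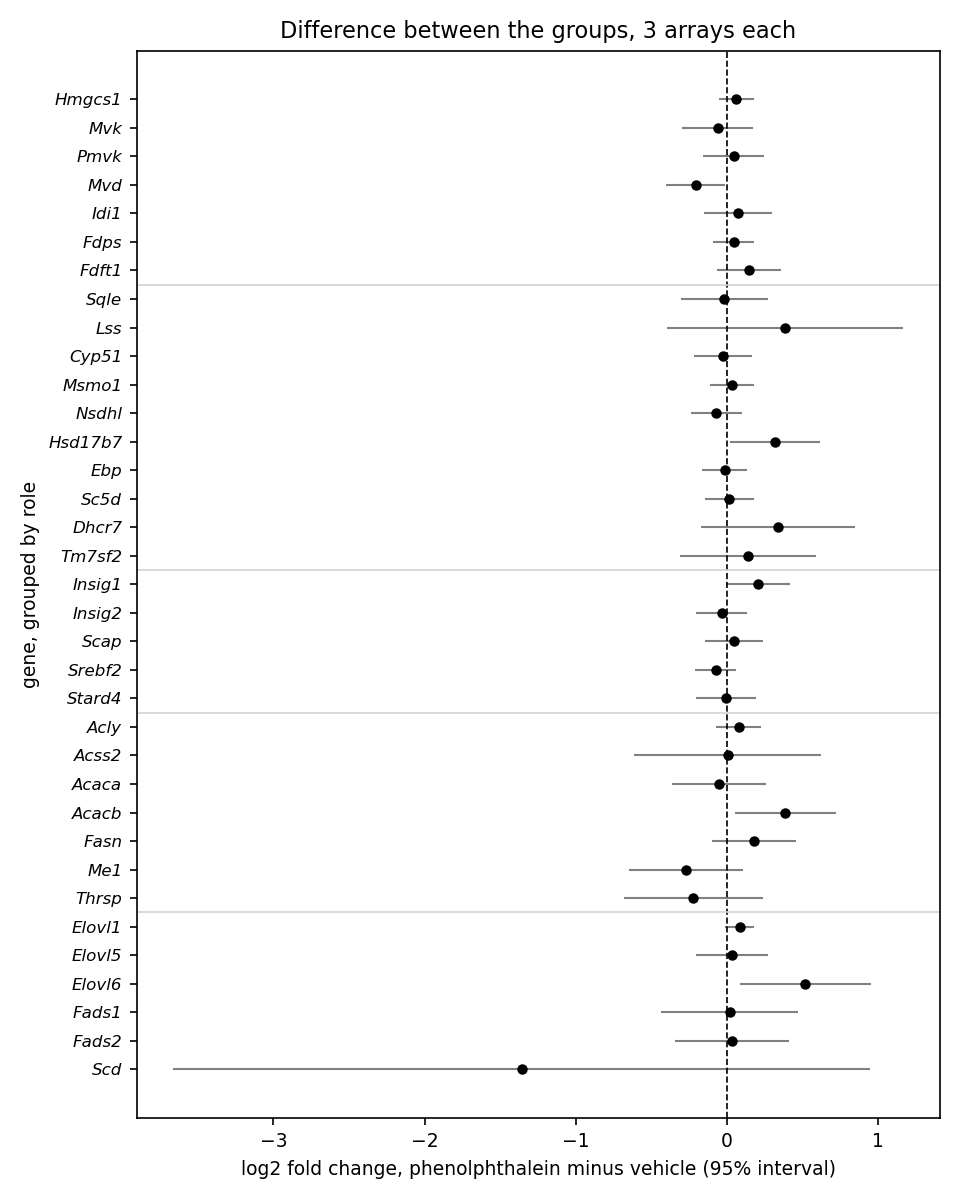
Log2 fold change of each gene, phenolphthalein minus vehicle (horizontal axis), with its 95% interval from limma, for 35 genes grouped by role (vertical axis, grey lines between roles). Most points lie within 0.25 of 0, and Scd at -1.36 has by far the widest interval of these genes.

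At an unadjusted p under 0.05, 3 of the 35 genes were higher (Elovl6, Acacb and Hsd17b7), where 3.91% of all items were, and 1 was lower (Mvd), where 4.96% of all items were. All 3 phenolphthalein arrays lay above all 3 vehicle arrays in 5 genes (Hmgcs1, Hsd17b7, Insig1, Acacb and Elovl1), against 6.58% of all items, and below them in 2 (Mvd and Srebf2), against 9.1% of all items. The set of genes at an unadjusted p under 0.05 changed with single arrays. It was Acacb and Elovl6 without vehicle replicate 1, Me1 alone without vehicle replicate 2, and Acss2 alone without phenolphthalein replicate 1. Without vehicle replicate 3 it was Hsd17b7, Acacb and Scd. It held 5 genes without phenolphthalein replicate 2 (Hsd17b7, Acacb, Fasn, Elovl6 and Fads1) and 5 without phenolphthalein replicate 3 (Mvd, Hsd17b7, Dhcr7, Insig1 and Acacb). With the median over the probes of each gene in place of the brightest probe, it was Mvd alone.

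**Figure D2:**
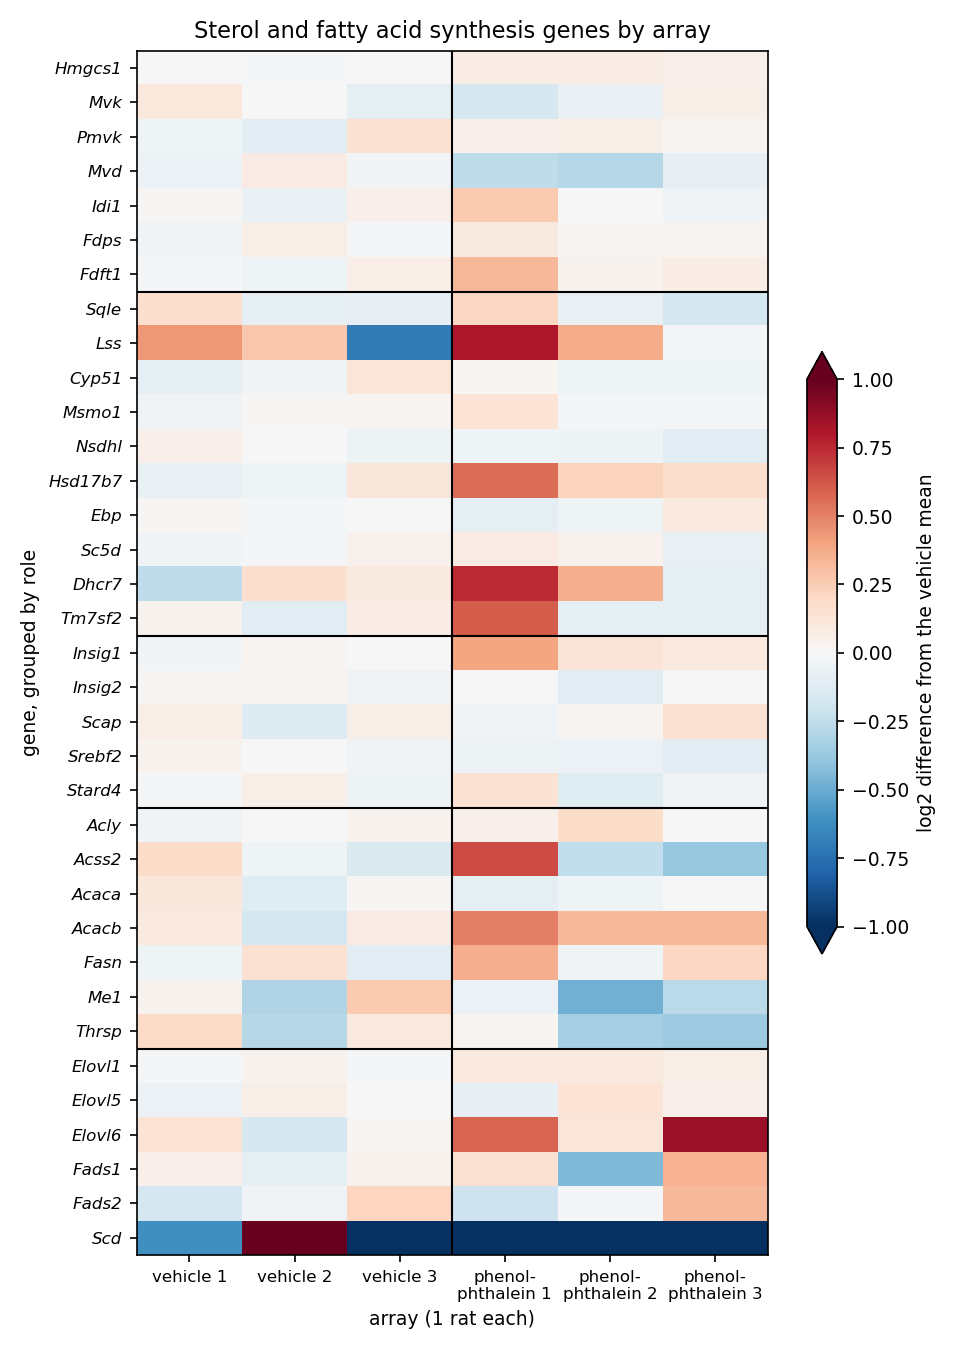
Heat map of 35 genes (rows, grouped by role with black lines between roles) on the 6 arrays (columns), coloured by the log2 difference from the vehicle mean of the gene. The colour scale ends at -1 and 1, which the Scd values exceed; the darkest reds of the sterol genes fall in phenolphthalein replicate 1.

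In the mevalonate pathway, which runs from acetyl-CoA units to squalene, 5 of 7 genes had higher and 2 lower values, with a median difference of 0.05. Hmgcs1, whose enzyme commits acetyl-CoA units to the pathway, was at 2.89, 2.87 and 2.88 in vehicle replicates 1 to 3 and at 2.95, 2.95 and 2.93 in phenolphthalein. The groups did not overlap, yet the gap was small: the difference was 0.06 (SE 0.05, 95% interval -0.05 to 0.18, limma adjusted p = 0.732). Its other probes differed by 0.08 and -0.08, so the direction is not shared by all of them. Mvd, which decarboxylates mevalonate diphosphate to isopentenyl diphosphate, was at 0.70, 0.84 and 0.73 in vehicle and at 0.51, 0.47 and 0.68 in phenolphthalein. Every treated array was lower, by -0.21 in the mean (SE 0.08, limma adjusted p = 0.554). The gene has a single probe.

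Fdft1, the squalene synthase at the branch towards sterols, was at 2.78, 2.76 and 2.86 in vehicle and at 3.13, 2.84 and 2.88 in phenolphthalein. Phenolphthalein replicate 1 stood far above the vehicle arrays and replicate 3 just above them, while replicate 2 lay among them. Without replicate 1 the difference of 0.15 (SE 0.09) was 0.06. The isomerase gene Idi1 was also highest on that array, at 1.44 in phenolphthalein replicate 1 and between 1.11 and 1.22 on the other 5 arrays. The remaining genes of this stretch, Mvk and Pmvk, which phosphorylate mevalonate in 2 steps, and Fdps, which builds farnesyl diphosphate, had differences between -0.06 and 0.05 with overlapping groups.

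From squalene to cholesterol, 6 of 10 genes had higher and 4 lower values, with a median difference of 0.03, which became -0.02 without phenolphthalein replicate 1. Sqle, the squalene epoxidase and a gate of the pathway, was at 1.84, 1.58 and 1.59 in vehicle and at 1.87, 1.60 and 1.49 in phenolphthalein. The difference of -0.02 (SE 0.12, 95% interval -0.30 to 0.27) lay within the spread of either group. Hsd17b7, the reductase of a sterol 3-ketone, was at -1.71, -1.68 and -1.52 in vehicle and at -1.08, -1.42 and -1.46 in phenolphthalein. All treated arrays were higher, with a difference of 0.32, or 1.25-fold (SE 0.13, limma adjusted p = 0.547), which was 0.20 without phenolphthalein replicate 1. By its second probe the groups overlapped and the difference was 0.10.

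The widest spread in this stretch was in Lss, Dhcr7 and Tm7sf2, which are singled out here after their values were seen. Lss, the cyclase that forms lanosterol, was at 0.80, 0.65 and -0.33 in vehicle and at 1.18, 0.74 and 0.36 in phenolphthalein. Vehicle replicate 3 was the lowest and phenolphthalein replicate 1 the highest by both probes of the gene, and the difference was 0.39 (SE 0.33, 95% interval -0.39 to 1.17). Without vehicle replicate 3 that difference was 0.04, and without phenolphthalein replicate 1 it was 0.18. Dhcr7, the reductase of the last step to cholesterol, was at 1.48, 1.89 and 1.82 in vehicle and at 2.48, 2.09 and 1.64 in phenolphthalein, a difference of 0.34 (SE 0.22) that was 0.13 without phenolphthalein replicate 1. Tm7sf2, a sterol reductase earlier in the route, was at 2.46, 2.32 and 2.50 in vehicle and at 3.03, 2.33 and 2.33 in phenolphthalein. Here replicate 1 of the treated group stood 0.70 above the mean of the other treated arrays, and without it the difference turned from 0.14 to -0.09. By the brightest probe, the other genes of the route lay within 0.07 of their vehicle means. They were Cyp51, Msmo1 and Nsdhl, which act in the removal of the methyl groups of lanosterol, Ebp, the isomerase, and Sc5d, the desaturase. The second probe of Cyp51 gave a difference of 0.21.

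**Figure D3:**
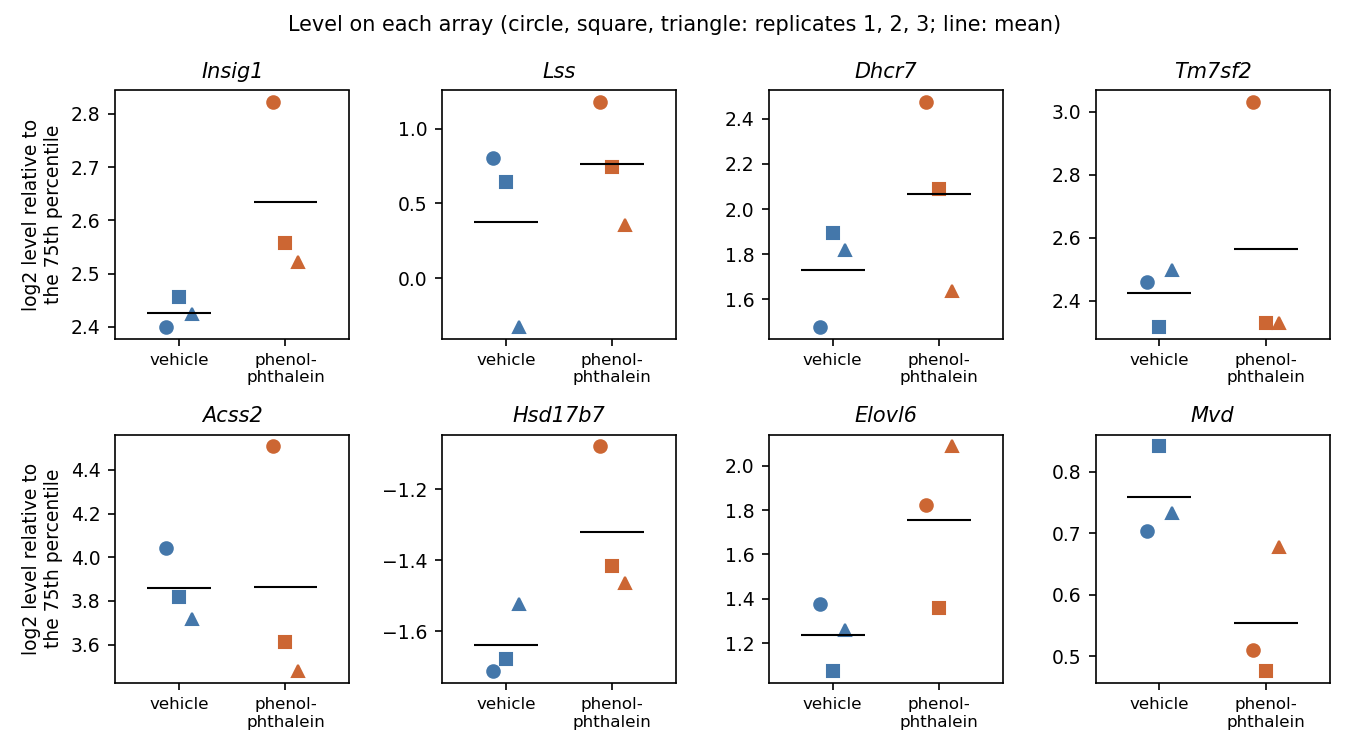
Level of 8 genes on each array (vertical axis, log2 relative to the array's 75th percentile, with a separate scale for each gene). Circles, squares and triangles are replicates 1, 2 and 3 of a group and lines are group means; the circle of phenolphthalein replicate 1 is the highest point for Insig1, Lss, Dhcr7, Tm7sf2, Acss2 and Hsd17b7.

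Among the genes that sense sterols, Insig1 showed the largest difference. Insig1, which retains the sterol-sensing complex in the endoplasmic reticulum and is itself a target of that pathway, was at 2.40, 2.46 and 2.42 in vehicle and at 2.82, 2.56 and 2.52 in phenolphthalein. All treated arrays were higher, with a difference of 0.21, or 1.15-fold (SE 0.09, 95% interval -0.00 to 0.42, limma adjusted p = 0.568), and it was 0.11 without phenolphthalein replicate 1. The other 3 probes of the gene differed by 0.28, 0.34 and 0.31, and phenolphthalein replicate 1 was the highest array by all 4 probes. Srebf2 itself was at 1.77, 1.72 and 1.70 in vehicle and at 1.68, 1.67 and 1.62 in phenolphthalein. The difference was -0.07 (SE 0.06, limma adjusted p = 0.741) with groups that did not overlap, whereas a second probe gave 0.08 and the dimmest gave -0.25. The paralog Insig2, the escort gene Scap and the sterol carrier gene Stard4 had differences of -0.03, 0.05 and -0.00, with standard errors between 0.07 and 0.08.

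Fatty acid synthesis had no common direction, with 4 of 7 genes higher, 3 lower and a median of 0.01. Acly, which makes cytosolic acetyl-CoA from citrate, was at 3.79, 3.82 and 3.86 in vehicle and at 3.87, 4.0 and 3.82 in phenolphthalein (difference 0.08, SE 0.06). Fasn, fatty acid synthase, was at 1.24, 1.43 and 1.18 in vehicle and at 1.64, 1.25 and 1.49 in phenolphthalein (difference 0.18, SE 0.12, 95% interval -0.10 to 0.46). The groups overlapped in both genes. Without phenolphthalein replicate 1 the Fasn difference was 0.09 and without replicate 2 it was 0.29. The Acly difference was 0.03 without phenolphthalein replicate 2 and 0.12 without replicate 3. The acetyl-CoA carboxylases differed from each other. Acaca, the cytosolic form that feeds synthesis, was at -3.76, -3.99 and -3.86 in vehicle and at -3.96, -3.92 and -3.87 in phenolphthalein (difference -0.05, SE 0.13). Acacb, the mitochondrial form whose malonyl-CoA restrains fatty acid oxidation, was at -3.90, -4.17 and -3.91 in vehicle and at -3.48, -3.67 and -3.66 in phenolphthalein. All treated arrays were higher in Acacb, by 0.39, or 1.31-fold (SE 0.14, limma adjusted p = 0.531). Its second probe gave 0.55, but in vehicle only 2 of 3 arrays had it well above background. Whether the 2 carboxylases changed by different amounts was not tested.

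Acss2, which makes acetyl-CoA from acetate and is singled out after its values were seen, had the most uneven treated group of the fatty acid synthesis genes. It was at 4.04, 3.82 and 3.72 in vehicle and at 4.51, 3.61 and 3.48 in phenolphthalein. Phenolphthalein replicate 1 was above, and the other treated arrays below, every vehicle array, so the difference of 0.01 (SE 0.26) averages opposite departures. Without phenolphthalein replicate 1 it was -0.31. Its second probe showed the like split, at 2.26 in phenolphthalein replicate 1 and 1.25 in both others, against 1.43 to 1.72 in vehicle. The malic enzyme gene Me1, a source of NADPH, was at 4.67, 4.33 and 4.89 in vehicle and at 4.57, 4.15 and 4.36 in phenolphthalein (difference -0.27, SE 0.16). Its 3 probes shared the direction, with differences of -0.27, -0.28 and -0.24, but that of the brightest was -0.14 without vehicle replicate 3 and -0.42 without vehicle replicate 2. Thrsp, a lipogenic gene of liver and fat, was at -3.88, -4.36 and -3.97 in vehicle and at -4.04, -4.40 and -4.43 in phenolphthalein (difference -0.22, SE 0.19), and leaving out single arrays gave -0.37 (vehicle replicate 2) to -0.13 (vehicle replicate 1).

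Among the genes that lengthen and desaturate fatty acids, Elovl6 had the largest positive difference and the smallest adjusted p of all 35 genes. Elovl6, which lengthens palmitate to stearate, was at 1.38, 1.07 and 1.26 in vehicle and at 1.82, 1.36 and 2.09 in phenolphthalein. Phenolphthalein replicate 2 lay just below vehicle replicate 1, so the groups overlapped. The difference was 0.52, or 1.43-fold (SE 0.18, 95% interval 0.09 to 0.96, limma adjusted p = 0.521), and the second probe gave 0.48. Leaving out single arrays gave 0.35 to 0.72. Elovl1, which makes very long saturated chains, was at 6.13, 6.18 and 6.13 in vehicle and at 6.24, 6.25 and 6.21 in phenolphthalein (difference 0.09, SE 0.04). Its other 3 probes gave differences between -0.00 and 0.08.

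The desaturases of polyunsaturated fatty acids showed no shift of the group. Fads1 and Fads2 differed by 0.02 (SE 0.19) and 0.04 (SE 0.16), and Elovl5, which lengthens such chains, by 0.03. As in Elovl6, phenolphthalein replicate 3 was the highest array for both Fads1 (1.08) and Fads2 (-0.15). Scd, a stearoyl-CoA desaturase gene, was close to the background of the array. Its brightest probe was well above background on vehicle replicates 1 and 2 and on phenolphthalein replicate 2 only. It stood at -5.44, -2.42 and -6.62 in vehicle and at -6.38, -6.04 and -6.13 in phenolphthalein. The difference of -1.36 (SE 0.97, 95% interval -3.66 to 0.95) rested on vehicle replicate 2 and was -0.15 without it. The second probe was not well above background on any array, and vehicle replicate 2 did not stand out there, at -7.74 within a range of -8.43 to -7.30.

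Within the treated group, many sterol genes were highest on 1 array. The arrays that share slide 3 also differed from each other in some, as in Lss (0.74 and 0.36) and Dhcr7 (2.09 and 1.64). Phenolphthalein replicate 1, alone on slide 2, was the highest of all 6 arrays in 13 of the 22 measured sterol genes (mevalonate pathway, squalene to cholesterol, and sterol sensing), where it was the highest in 21.1% of all items. It lay above both other treated arrays in 16 of the 22, against 34.2% of all items, and in 9 of the 10 genes from squalene to cholesterol. This array was the lowest in 26.5% of all items and in 2 of the 22 sterol genes. Relative to the vehicle mean, 4 sterol genes stood more than 0.5 higher on it: Lss (0.81), Dhcr7 (0.75), Tm7sf2 (0.61) and Hsd17b7 (0.56). The share of all items past 0.5 was not computed, so whether 4 is many is not known. Counted by probe, this array was the highest for 26 of the 40 tested probes of the sterol genes and for 21.8% of all probes. Of the 13 fatty acid genes it was the highest array in 3 (23.1%). It lay above both other treated arrays in 5 of 7 genes of fatty acid synthesis and in 0 of 6 genes of elongation and desaturation. The pattern was noticed in these data and concerns 1 animal, so no test is given, and the animal and its slide cannot be told apart.

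**Figure D4:**
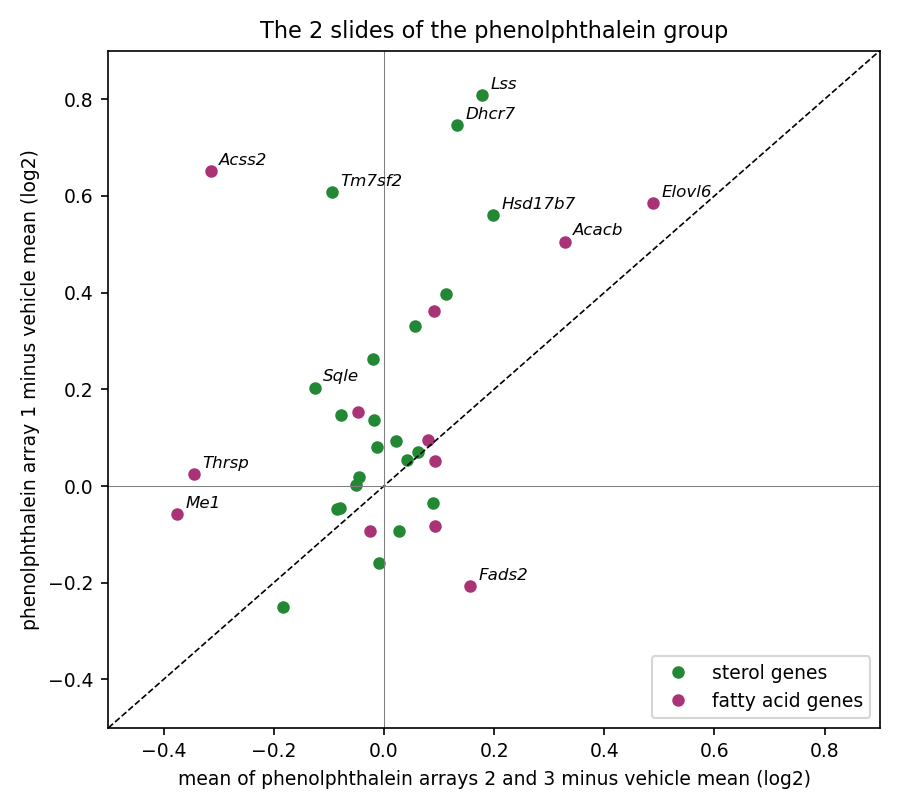
Log2 difference from the vehicle mean on phenolphthalein array 1 (vertical axis, slide 2) against the mean of phenolphthalein arrays 2 and 3 (horizontal axis, slide 3) for each gene except Scd, with equal values on the dashed line. Sterol genes are green and fatty acid genes purple; Lss, Dhcr7, Tm7sf2 and Acss2 lie far above the line.

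Some markers of other cell types, though not all of any list, were also highest on that array. The summed level of the 3 adrenal cortex markers tested was 2.18 in phenolphthalein replicate 1, against 1.28 and 0.88 in the other treated arrays and 1.08 to 1.12 in vehicle, and most of it came from Hsd3b1, which stood at 0.76 on that array. Of the 8 adrenal markers, Star, Cyp11b1, Cyp11b2, Mc2r and Nr5a1 were not well above background on any array. Among the 3 tested, Cyp21a1 was also highest on that array, at -1.12 against -2.08 to -1.31 on the others, while Cyp11a1 was lowest there, at -5.48. Of the 12 fat markers, 9 were tested, and Lep was not well above background on any array. Their summed level was 200.3 in phenolphthalein replicate 1, 179 and 214 in the other treated arrays and 159 to 168 in vehicle, most of it from Pck1, which the kidney also expresses. Phenolphthalein replicate 1 was the highest array for 3 of the 9 (33.3%, against 21.1% of all items). These were Cidec, a lipid droplet gene, at 1.15 against -0.51 to 0.33 on the others, Cfd at -1.52 and Lpl at -0.03. Like Pck1, Cfd and Lpl are also expressed by the kidney. Retn was lowest on that array, at -6.56. Adipoq, a defining marker of fat cells, was at 0.08 there, and at -0.70 and 0.16 in phenolphthalein replicates 2 and 3. In vehicle it was between -0.08 and 0.34. The median difference of the 9 from their vehicle means was 0.17 on that array, against -0.16 and 0.10 on the other treated arrays. The part of these markers in the result was not tested.

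A second list held sterol genes outside the 36. Of the 18 tested, phenolphthalein replicate 1 was the highest array in 5, or 27.8%. The difference between the 2 sets of sterol genes was not tested.

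The promoters of the 4 sterol genes more than 0.5 above their vehicle mean on this array are shown, with those of Insig1, highest there by all its probes, and of Acss2, the fatty acid gene farthest above the other treated arrays. They are RefSeq windows of GRCr8, from 250 bases before to 50 after the gene's start, and 29 of the 36 genes had a window. The motifs were searched on both strands, and capitals mark a CCAAT box (CCAAT or ATTGG, the site of NF-Y, a partner of the sterol-responsive factors) or an E-box (CACGTG), which did not overlap.
Lss, chr20:12118181-12118480, minus strand: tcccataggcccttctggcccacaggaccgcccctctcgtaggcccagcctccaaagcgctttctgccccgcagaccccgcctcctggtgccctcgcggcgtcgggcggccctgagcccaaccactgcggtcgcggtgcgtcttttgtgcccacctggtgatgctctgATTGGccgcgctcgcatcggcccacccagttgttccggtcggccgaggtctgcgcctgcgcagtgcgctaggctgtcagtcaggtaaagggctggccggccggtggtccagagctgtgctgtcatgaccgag
Dhcr7, chr1:208444184-208444483, plus strand: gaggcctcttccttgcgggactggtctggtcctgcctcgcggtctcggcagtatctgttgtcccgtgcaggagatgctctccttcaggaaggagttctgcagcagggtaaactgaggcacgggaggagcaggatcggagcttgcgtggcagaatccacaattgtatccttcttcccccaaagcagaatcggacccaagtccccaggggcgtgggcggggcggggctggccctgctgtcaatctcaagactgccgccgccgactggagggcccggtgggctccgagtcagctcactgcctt
Tm7sf2, chr1:212789492-212789791, minus strand: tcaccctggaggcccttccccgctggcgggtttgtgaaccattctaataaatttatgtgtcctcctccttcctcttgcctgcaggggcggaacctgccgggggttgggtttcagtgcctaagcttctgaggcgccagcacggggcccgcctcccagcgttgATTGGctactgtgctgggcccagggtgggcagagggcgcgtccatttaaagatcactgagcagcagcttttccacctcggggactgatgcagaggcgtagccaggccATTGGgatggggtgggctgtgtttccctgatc
Hsd17b7, chr13:84722705-84723004, minus strand: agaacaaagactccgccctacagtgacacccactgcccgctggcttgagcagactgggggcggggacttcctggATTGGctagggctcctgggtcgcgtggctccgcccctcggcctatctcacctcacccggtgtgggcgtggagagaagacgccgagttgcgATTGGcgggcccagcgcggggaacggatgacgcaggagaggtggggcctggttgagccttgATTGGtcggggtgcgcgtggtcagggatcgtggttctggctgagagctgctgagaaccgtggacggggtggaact
Insig1, chr4:8057720-8058019, minus strand: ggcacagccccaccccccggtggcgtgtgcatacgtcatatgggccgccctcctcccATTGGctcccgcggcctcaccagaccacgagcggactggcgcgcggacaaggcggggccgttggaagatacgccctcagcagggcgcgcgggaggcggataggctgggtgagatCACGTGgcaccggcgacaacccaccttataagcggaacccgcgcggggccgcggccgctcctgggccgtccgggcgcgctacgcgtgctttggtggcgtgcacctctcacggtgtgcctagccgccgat
Acss2, chr3:164464453-164464752, plus strand: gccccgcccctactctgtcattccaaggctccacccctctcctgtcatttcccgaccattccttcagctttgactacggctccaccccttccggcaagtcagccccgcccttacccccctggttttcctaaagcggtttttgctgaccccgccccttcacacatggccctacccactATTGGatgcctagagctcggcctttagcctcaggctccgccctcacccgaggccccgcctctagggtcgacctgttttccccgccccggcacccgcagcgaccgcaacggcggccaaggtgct

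The CCAAT box was found in 22 of the 29 genes with a window, and in 39.6% of all 27457 genes with one. The E-box was found in 4 of the 29 (Insig1, Sc5d, Elovl5 and Scap) and in 7.08% of all genes. The core of a sterol regulatory element, TCACNCCAC, was found in 0 of the 29 and in 1.25% of all genes, and its absence says only that these letters are not in these windows. Dhcr7, which stood 0.75 above its vehicle mean on phenolphthalein replicate 1, held none of these motifs. A match describes letters and is not a measured binding site.

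Genes around the pathway were taken from 4 further lists. No gene of these lists passed the threshold (limma, smallest adjusted p = 0.477). Of the 18 other sterol genes tested, 9 had higher and 9 lower values, with a median of 0.00, and 0 had an unadjusted p under 0.05. The 4 with the smallest p were all lower: the lipoprotein receptor gene Vldlr (-0.20), the sterol carrier Stard3 (-0.10), the thiolase Acat2 (-0.25) and the sterol acyltransferase Soat1 (-0.16). Of 11 genes of the liver X receptors and their targets, some of which export sterols, 4 had higher and 7 lower values, with a median of -0.05. At an unadjusted p under 0.05 (limma), 1 was higher and 2 were lower, against 3.91% and 4.96% of all items. All treated arrays lay above all vehicle arrays in 1 gene and below them in 2, against 6.58% and 9.1% of all items. Apoe, the apolipoprotein of sterol export, was at 6.66, 6.63 and 6.71 in vehicle and at 6.16, 6.45 and 6.48 in phenolphthalein, a difference of -0.30 (SE 0.09, limma adjusted p = 0.477). All treated arrays were below all vehicle arrays, as they were for the exporter Abcg1 (-0.25, SE 0.08). Abca1, another sterol exporter, lay above its vehicle arrays on every treated array (0.33, SE 0.13), and Cyp27a1, a sterol hydroxylase, differed by 0.28. Of 9 macrophage markers, 8 were tested and 7 had lower values, with a median of -0.42. Their summed level was 42.8 to 51.0 in vehicle and 32.1 to 40.2 in phenolphthalein, and its part in the Apoe and Abcg1 values was not tested.

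Of 21 other genes of fatty acid and glycerolipid synthesis, 9 had higher and 12 lower values, with a median of -0.04 and 1 gene at an unadjusted p under 0.05. That gene was Acsl3, which activates long-chain fatty acids. It was at 1.55, 1.42 and 1.54 in vehicle and at 1.59, 1.82 and 1.82 in phenolphthalein, a difference of 0.24 (SE 0.09, limma adjusted p = 0.530) with groups that did not overlap. The next 3 by p were the thioesterase Acot1 (-0.15), Mlycd, which breaks down malonyl-CoA (0.19), and the acyl-CoA synthetase Acsl5 (-0.13). The 6 tested genes of NADPH supply differed by between -0.04 and 0.06. Idh1, the cytosolic isocitrate dehydrogenase, was at 6.20 in phenolphthalein replicate 1 and between 5.50 and 5.78 on the other arrays.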

How the data were processed

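Total RNA of 6 rats was labelled with Cy3 and hybridised to 1-colour arrays, per the labels. The deposited scanner files hold spot intensity that Feature Extraction 10.7.1.1 had background-subtracted, per the file headers (10.7 in the submitters' processing notes). The deposited value table holds a ratio on a linear scale. It equalled the processed intensity over the array's 75th percentile (SD of the log2 difference at most 0.000185 over values above 0.1), with column medians of 0.102 to 0.106. Every column fitted a scanner file of its own group, but of a different replicate number. Which number is right is therefore unsettled, and the numbers of the scanner files were used. Of its columns, 0 were left out.

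From the intensity, the log2 value minus the array's log2 75th percentile over non-control probes was computed, with outlier spots (2 to 14 per array) set to missing. Of 61657 probes, 27460 matched 1 symbol of the GRCr8 gene table by RefSeq accession. A probe was kept if 3 or more of the 6 arrays measured it well above background, and the brightest stood for a gene. This left 12269 genes and 22148 unnamed probes. The two-sided test of the group difference was that of limma 3.58.1 (eBayes after lmFit, with trend; R 4.3.3), and p-values were adjusted by Benjamini-Hochberg. The fit was tested on simulated data. SE is limma's, and SDs are between arrays.

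The genes, lists and motifs were chosen with earlier results of these data known. The rule for values on every array took genes at an unadjusted p under 0.05 plus Hmgcs1, Sqle, Fdft1, Srebf1, Srebf2, Insig1, Acaca, Acacb, Fasn, Scd, Acly and Thrsp. Other lists were named by up to 4 genes of smallest p. Lss, Dhcr7, Tm7sf2, Acss2, Me1 and Elovl1 are given beyond the rule. Of 22 genes with over 1 tested probe, 9 had probes that differed in sign. Marker lists not named in the results were the distal nephron (6 tested, median -0.09) and liver (18 tested, median 0.37). The planned naming by a gene-name column was not run, as the scanner files used have none, and normexp took the median signal in place of the mean signal.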

Additional observations from a re-analysis of the deposited data

How the results depend on the processing

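The alternatives were quantile and median scaling, the 75th percentile over detected probes, normexp, the value table, no filter and a filter on all arrays, the median over probes, outlier spots kept, no trend, the slide as a random block, the replicate block, and leaving out each array. No sterol or fatty acid gene passed the threshold under any of these (0 called each time), and the count over all items was 0 higher and 0 lower except with single arrays left out, where it was 0 to 1 each way. With an array left out, 17 to 25 of the genes had higher values and 1 to 5 had an unadjusted p under 0.05. With the median over probes that count was 1, and the median of the sterol sensing genes was 0.049. Leaving out single arrays gave medians of 0.023 to 0.065 for the mevalonate pathway, -0.015 to 0.064 for squalene to cholesterol, -0.050 to 0.057 for sterol sensing, -0.042 to 0.118 for fatty acid synthesis, -0.041 to 0.087 for elongation and desaturation, and -0.0081 to 0.057 for all genes. The count of sterol genes highest in phenolphthalein replicate 1 was 12 to 14 under alternatives chosen after seeing the data.

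Of the differences of single genes under the alternatives that kept all arrays, 406 kept their sign and 13 changed it, and the cause was not tested. They were Stard4 with quantile (0.0053), median (0.0048), normexp (0.026) and the slide block (0.0022); Ebp (0.027), Sc5d (-0.044) and Acaca (0.035) with normexp; and Fdps (-0.081), Sqle (0.031), Cyp51 (0.095), Srebf2 (0.078), Acss2 (-0.0029) and Acaca (0.00091) with the median over probes. With an array left out, the sign changed in Pmvk (-0.0086 to 0.12), Idi1 (-0.020 to 0.13), Sqle (-0.13 to 0.069), Cyp51 (-0.071 to 0.036), Msmo1 (-0.017 to 0.062), Ebp (-0.069 to 0.027), Sc5d (-0.013 to 0.064), Tm7sf2 (-0.095 to 0.26), Insig2 (-0.051 to 0.0018), Scap (-0.015 to 0.090), Stard4 (-0.077 to 0.057), Acss2 (-0.31 to 0.20), Acaca (-0.11 to 0.0076), Elovl5 (-0.016 to 0.093), Fads1 (-0.14 to 0.25) and Fads2 (-0.11 to 0.16).

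The deviations of animals with the same scanner-file number correlated at -0.00606, -0.015 and 0.025. As the numbering is unsettled, these values cannot show whether the animals were paired. With the replicate block, 0 genes were called and 4 of the 35 had an unadjusted p under 0.05 (Lss, Acacb, Me1 and Elovl6). No value is precise where a probe is dim, as for Scd.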
